A study of Mus musculus with 3 samples.

Results

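The circRNAs of plasma exosomes were compared between library B1, which the study's supplementary lists of comparisons assign to the model + EA group, and library C1, which they assign to the normal group. Every circRNA of the deposited table was taken, 563 in all from 459 host genes, and no selection on values was made. Of these, 428 had junction reads in B1 or C1, and the other 135 were read only in A1, the third library of the series. The comparison addresses how the exosomal circRNAs of diabetic mice treated with electroacupuncture (EA) stand against those of untreated, non-diabetic mice.

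The sample titles in GEO assign the libraries to other groups. By the titles, B1 is the model group, C1 is the model + EA group and A1 is the normal group, whereas by the supplementary lists A1 is the model group. The study's own comparisons follow the supplementary lists, and the deposited table itself does not settle which assignment is right. The libraries are therefore called B1, C1 and A1 throughout, and the comparison by the titles is given at the end.

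All mice were male, wild type and of strain C57BL/6, and the sources used here do not give their age at sampling. Normal mice received basic forage. Model mice received high-fat forage for 6 weeks and then injections of streptozotocin (STZ), a toxin of the insulin-producing β cells, on 7 days. Per the methods, mice that missed the glucose criteria had a further STZ injection, and whether the sequenced plasma came from such mice is not stated. Mice of the model + EA group were also given EA at 2 Hz for 15 minutes at the Zusanli and Pishu points, in 12 sessions over 4 weeks. Model + EA and normal mice thus differ in diet, STZ and EA together, and the parts of these cannot be told apart in this comparison. Each group held 10 mice but is represented by 1 library, and whether plasma of several mice was pooled for it is not stated. The spread between mice is therefore unknown, the sequencing holds no replicate check, and the comparison rests on counts and ratios without p-values. The paper also measured selected circRNAs by qPCR, for model + EA against normal among others, and states that most results matched the sequencing. Their hosts include Zwilch, Pde5a, Btaf1, Ezh2, Strn3 and Tulp4. Whether the qPCR used RNA of other mice is not stated, and its values were not used here.

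Exosomes are small vesicles released by cells into body fluids, and those of plasma come from blood cells, vessels and organs. A circRNA forms when the splicing machinery joins an exon's end back to its own start or to that of an exon upstream, which closes the RNA into a ring without free ends and makes it resistant to exonucleases. Reads across this back-splice junction count the ring and not the linear mRNA of the host gene, so a junction count says nothing of the level of the host mRNA. Circles often begin at the second exon of their host, because the first exon lacks the upstream splice site that back-splicing needs.

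The sequences at the junctions identify the circles that carry the comparison. The 12 shown have the most reads in B1 alone, in C1 alone and in both libraries (4 each) among circRNAs whose ends lie at exon edges in coding sequence. Circles of one chromosome, among them the Mbd2 circle that has the most reads of C1 alone, were not considered for printing. Each run holds the last 15 bases of the last exon in lower case, followed by the first 15 bases of the first exon in capitals, so the change of case marks the back-splice junction. They were read from GENCODE M21 transcripts of the same assembly as the mm10 positions of the table.
Nmt1 (B1 alone): agagtttctcttgtgATGACCTCTTTGCCA
Slc16a10 (B1 alone): ccttacgttcacttgCGTGGGTGGGCTCGC
Sox6 (B1 alone): cagcaacagatccagGTACACCTGAGAGCC
Cntln (B1 alone): agccactcaggaaagACTGAATCTGTACTA
Stam (C1 alone): gcctttattgatgagGCTGCAGAACAAGCA
Eif3a (C1 alone): attcagaagacccagGTGGATGGAGAGAGA
Smarcc1 (C1 alone): cctcacaagaggatgGCGGAGATTTGATCT
Fcho2 (C1 alone): agagaaatagaaaagAACATTTGCACCAAT
Ube2k (both): atgggttttgataggACGAGCAAAAATCAA
Zwilch (both): tcaactgcagctctgCTGATAAAAATTACT
Med13l (both): atcatgaactgcaggGCTGAACTCACAGGA
Strn3 (both): atggtacagaatgggGCACGGATTGCATTT

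B1 and C1 differed in how their reads were spread over circRNAs. B1 held 4372 junction reads on 140 circRNAs of 128 hosts, with a median of 33.5 reads for a detected circRNA and a maximum of 92. C1 held 2913 junction reads on 320 circRNAs of 269 hosts, with a median of 7 reads and a maximum of 56. C1 thus had fewer reads on more circRNAs. In C1, 89 of the detected circRNAs (27.8%) had under 5 reads, against 7 (5.00%) in B1. At least 20 reads were reached by 106 circRNAs in B1 and by 24 in C1. The curves of reads by rank cross, with B1 above C1 for its leading circRNAs and C1 reaching much further to the right. A1 lay nearer to B1, with 4125 reads on 157 circRNAs and a median of 25 reads. Every row of the table had at least 2 reads in at least 1 library. Junction reads are not the depth of a library, and the sources used here do not give the total of sequenced reads, so the part of depth and of PCR copies in this difference was not tested.

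**Figure D1:**
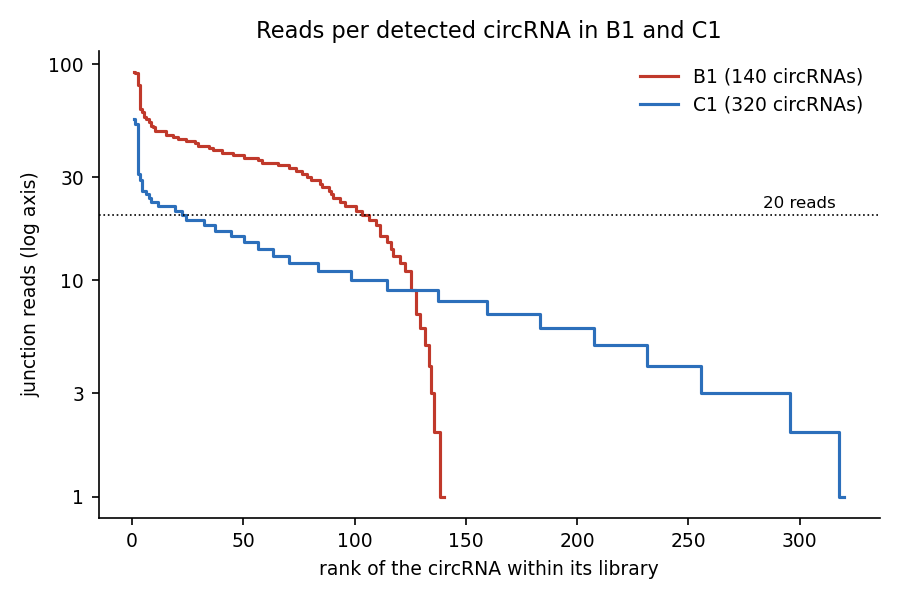
Junction reads of each detected circRNA (vertical log axis) against its rank within the library (horizontal axis) for B1 and C1, 1 line per library, with a dotted line at 20 reads. B1 falls from 92 reads over 140 circRNAs and C1 falls from 56 reads over 320 circRNAs.

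Counts were scaled by the authors' factor for each library (1.03 for B1 and 1.00 for C1), and calls followed the rule of the study, with a ratio of B1 over C1 of 2 or more called higher and one of 0.5 or less called lower. Of the 428 circRNAs with reads, 130 were higher in B1 (30.4%), 291 were lower (68.0%) and 7 lay within 2-fold. Most calls rest on a count of 0. C1 had 0 reads for 108 of the 130 and B1 had 0 reads for 288 of the 291. A count of 0 allows up to 3 reads, which is 0.0686% of the junction reads of B1 and 0.103% of those of C1. Computed against 3 reads, 103 of those called higher and absent from C1 were at least 2-fold higher, and 165 of those called lower and absent from B1 were at least 2-fold lower. For the remaining absences the depth did not show a 2-fold difference.

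The direction of the split turned with the number of reads required. Among the 227 circRNAs with at least 10 reads in the library where they were higher, 119 (52.4%) were higher and 102 (44.9%) were lower in B1. Among the 127 with at least 20 reads, 102 (80.3%) were higher and 21 (16.5%) were lower. The excess of lower calls over higher calls was thus made of circRNAs with few reads in C1. Of the 288 found in C1 and not in B1, 58 had at most 3 reads, against 3 of the 108 found in B1 and not in C1.

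**Figure D2:**
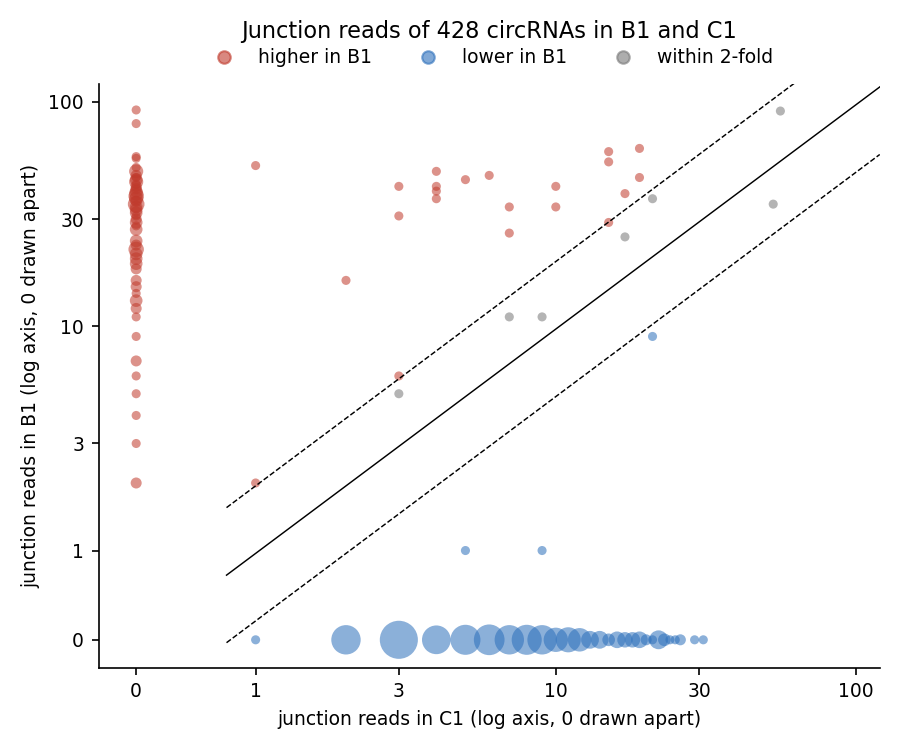
Junction reads in B1 (vertical) against C1 (horizontal) for the 428 circRNAs with reads in either, on log axes with 0 drawn apart, where the area of a point grows with the number of circRNAs at that place. The solid line marks equal scaled reads and the dashed lines 2-fold, and 396 circRNAs lie on an axis because 1 library has 0 reads, with those of C1 alone at lower counts than those of B1 alone.

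The circRNAs that led the higher set came from hosts of lipid modification of proteins, transport, transcription and the centrosome. The circle of Nmt1, which attaches myristate to proteins, spans exons 3 to 5 at chr11:103046379-103055289 and had 92 reads in B1, 0 in C1 and 0 in A1. It made up 2.10% of the junction reads of B1 (exact Clopper-Pearson 95% interval 1.70 to 2.57, counting error only) and was at least 31.7-fold higher than in C1. The circle of Slc16a10, which carries aromatic amino acids and thyroid hormones across membranes, spans exons 2 to 3 at chr10:40076564-40080807. It had 80 reads in B1, 0 in C1 and 0 in A1 and was at least 27.6-fold higher in B1. Both were thus read in B1 alone.

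Sox6, a transcription factor of cartilage, muscle and erythroid development, gave 57 reads in B1 and 0 in C1 and A1 from exons 5 to 6 at chr7:115659516-115662444 (at least 19.7-fold). Ankfy1, an effector of Rab5 on early endosomes, gave 56, 0 and 0 reads from a stretch inside the gene that is not bounded by exon edges on both sides (at least 19.3-fold). Cntln, a protein that links the centrioles, gave 51, 0 and 0 reads from exons 4 to 8 (at least 17.6-fold). These circles were also absent from A1.

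The other 5 of the 10 with the most reads were found in C1 as well. They came from Zwilch, a kinetochore protein (62 reads in B1, 19 in C1 and 0 in A1), Med13l and Med12l, subunits of the Mediator kinase module, Ankib1, a ubiquitin ligase of the RBR type, and Optn, an autophagy receptor. Med13l had 60, 15 and 16 reads, Ankib1 54, 15 and 36, Med12l 52, 1 and 67, and Optn 49, 4 and 0. Zwilch was 3.38-fold higher in B1 (interval of the ratio 1.99 to 5.98), Med13l 4.14-fold (2.32 to 7.85), Ankib1 3.73-fold (2.07 to 7.11) and Optn 12.7-fold (4.65 to 48.4). Med12l, with a single read in C1, had a ratio of 53.8 with an interval from 9.24 to 2166. With the authors' factors all 5 intervals lay above 1, and those of Med13l, Ankib1, Med12l and Optn lay wholly above 2. TMM scaling, another normalization, ended the 2-fold call of Zwilch (log2 ratio 0.67), Med13l (0.96) and Ankib1 (0.81).

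The circRNAs that led the lower set were read in C1 alone. The circle of Mbd2, which binds methylated DNA, spans exons 2 to 3 at chr18:70580653-70593340 and had 31 reads in C1, 0 in B1 and 0 in A1, so that it was at least 9.98-fold lower in B1. The circle of Stam, an ESCRT protein that sorts ubiquitinated receptors on endosomes, spans exons 6 to 9 at chr2:14128546-14134441 and had 29 reads (at least 9.34-fold lower). Eif3a, a subunit of a translation initiation factor, and Smarcc1, a core subunit of the BAF chromatin remodeler, had 26 reads each (at least 8.37-fold lower). The bounds of this set are smaller than those of the higher set because its leading counts are smaller.

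Setd3, a histidine methyltransferase of actin, followed with 25 reads in C1 (at least 8.05-fold lower in B1). Fcho2, which acts at the start of clathrin-coated pits, had 24 reads (at least 7.73-fold lower). Spire1, an actin nucleator, Arih1, a ubiquitin ligase of the RBR type, and Cenpi, a kinetochore protein, had 23 reads each (at least 7.41-fold lower). Cdc45, a part of the replicative helicase, had 22 reads (at least 7.09-fold lower), a count shared with circles of other hosts. None of these 10 circRNAs had a read in B1 or A1.

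Both libraries had reads for 32 circRNAs, which is 22.9% of those of B1 and 10.0% of those of C1. They held 1061 reads of B1 (24.3%) and 375 reads of C1 (12.9%). Their ratios do not depend on a value in place of 0. Of the 32, 28 had more scaled reads in B1 and 4 had fewer, and 22 were called higher, 3 lower and 7 within 2-fold. The median ratio was 3.45 (log2 1.79), with medians of 36.0 reads in B1 and 7 in C1. Over all detected circRNAs the medians were 33.5 and 7, so the shared circles had the same gap as the libraries. Of the 32, 27 had at least 10 reads in the higher library and 24 had at least 20. At these minimums 52.4% and 80.3% of all circRNAs were higher in B1. The interval of the ratio lay above 1 for 22 circRNAs, below 1 for 1 and held 1 for 9, and it lay wholly above 2 for 13. The 22 called higher include Hba-a1, with 2 reads in B1 and 1 in C1, too few for a fold.

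**Figure D3:**
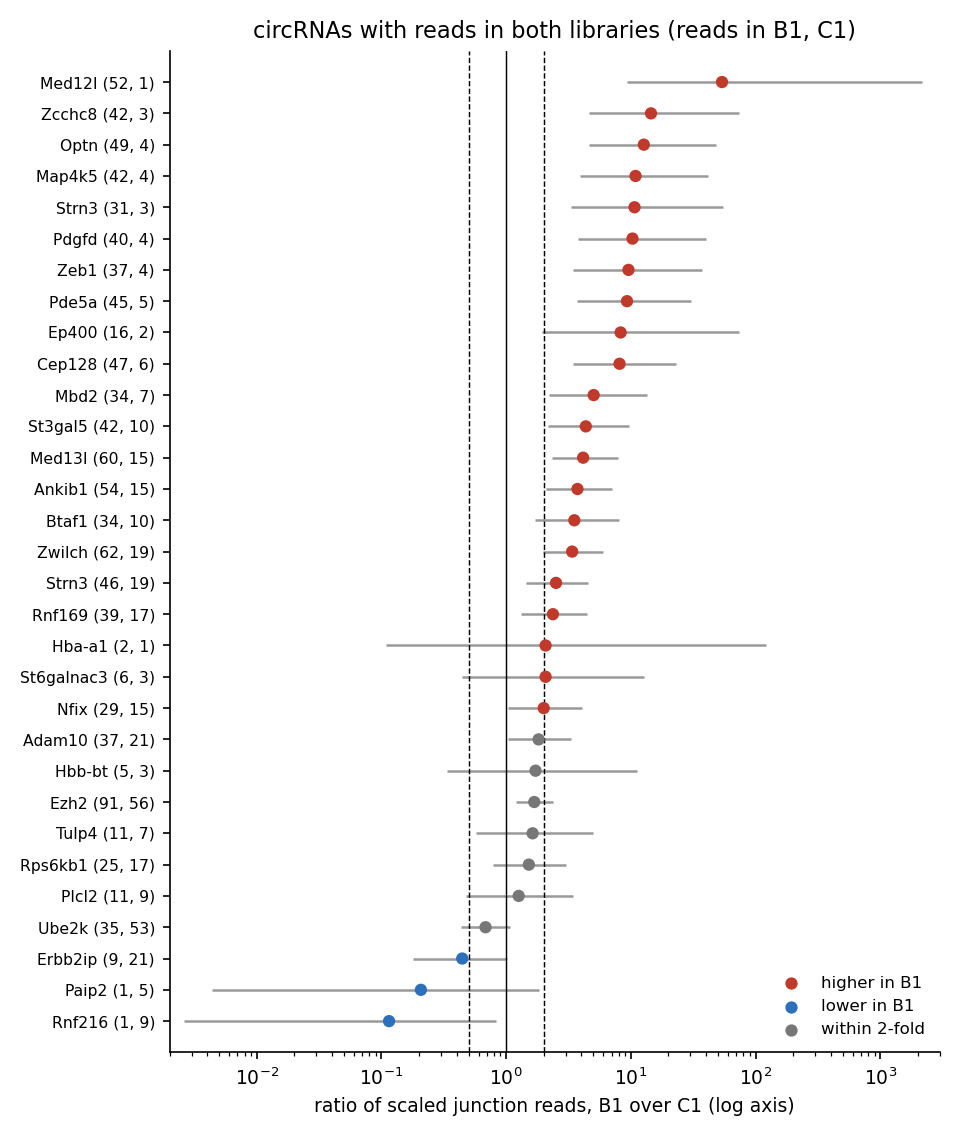
Ratio of scaled junction reads of B1 over C1 (horizontal log axis) for 31 of the 32 circRNAs with reads in both libraries, 1 row each by host, with the exact 95% interval for counting error as a line. Of the 31 points, 27 lie above 1 and 4 below, and the widest intervals belong to circRNAs with 1 to 3 reads in a library.

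The level of these ratios depends on the scaling. Scaling to total junction reads shifted every log2 ratio by -0.64, which put the median of the 32 at 1.15, and the TMM factors of edgeR put it at 0.70, a shift of -1.09. The directions depend on it as well. With total junction reads 26 of the 32 had more scaled reads in B1 and 6 had fewer, and with TMM 19 had more and 13 had fewer. The order of the 32 is the same under each scaling, since a factor moves all of them alike. After Med12l, the 4 highest ratios of the 32 were those of Zcchc8, a subunit of the nuclear exosome targeting complex, Optn, Map4k5 and Strn3 (exons 2 to 3). Zcchc8 had 42 reads in B1 and 3 in C1 (14.5-fold, 4.63 to 73.1), Map4k5, a kinase of the stress MAP kinase cascade, had 42 and 4 (10.9-fold, 3.94 to 41.7), and Strn3, a regulatory subunit of the phosphatase PP2A, had 31 and 3 (10.7-fold, 3.34 to 54.7).

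Chromatin hosts among the shared circles included Ezh2, the histone H3 methyltransferase of the Polycomb complex, Btaf1, a remover of TBP from DNA, and Ep400, a remodeler ATPase. The circle of exons 2 to 3 of Ezh2 at chr6:47576536-47577667 led C1 with 56 reads and had 91 in B1 and 0 in A1, a ratio of 1.68 (1.19 to 2.39). Its direction depended on the scaling, with log2 ratios of 0.75 with the authors' factors, 0.11 with total junction reads and -0.34 with TMM. Btaf1 had 34 reads in B1 and 10 in C1 (3.52-fold, 1.70 to 7.99), and Ep400 had 16 and 2 (8.28-fold, 1.95 to 74.2). TMM ended the 2-fold call of Btaf1 (log2 0.73). Ezh2, with the most reads of the 3 in both libraries, was the only one of them within 2-fold.

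Shared circles of other hosts ranged from clear excess in B1 to no call. Pde5a, the phosphodiesterase that degrades cGMP, had 45 reads in B1 and 5 in C1 (9.31-fold, 3.71 to 30.1). Its circle is exon 2 alone, and A1 had 0 reads for it. St3gal5, the synthase of the ganglioside GM3, had 42 and 10 reads (4.35-fold, 2.15 to 9.72). St6galnac3, another sialyltransferase of gangliosides, had 6 and 3 reads, and its interval held 1 (2.07-fold, 0.442 to 12.8). Rps6kb1, the S6 kinase downstream of mTOR, lay within 2-fold at 25, 17 and 49 reads in B1, C1 and A1 (1.52-fold, 0.790 to 3.0). Adam10, a protease that sheds membrane proteins, also lay within 2-fold at 37, 21 and 41 reads (1.82-fold, 1.04 to 3.28). The log2 ratios of Rps6kb1 and Adam10 turned to -0.48 and -0.22 with TMM. Nfix, a transcription factor, sat at the edge of the rule with 29, 15 and 29 reads (2.0-fold, 1.04 to 4.02), and its log2 ratio became -0.09 with TMM, as that of St6galnac3 became -0.04.

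The 4 shared circles with fewer scaled reads in B1 were those of Ube2k, Erbb2ip, Rnf216 and Paip2. Ube2k, a ubiquitin-conjugating enzyme, had 35 reads in B1, 53 in C1 and 0 in A1 (ratio 0.683, 0.433 to 1.07). Erbb2ip, a scaffold of the basolateral membrane, had 9, 21 and 65 reads (ratio 0.444, 0.179 to 1.01). Rnf216, a ubiquitin ligase, had 1, 9 and 0 reads (ratio 0.115, 0.00262 to 0.830), and Paip2, a translational repressor that binds poly(A)-binding protein, had 1, 5 and 0 (ratio 0.207, 0.00438 to 1.85). Only the interval of Rnf216 lay below 1, and none lay wholly below 0.5.

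The make-up of the shared circles was set beside that of circles found in 1 library. An identifier from an earlier circRNA database was carried by 27 of the 32 shared circles (84.4%, 67.2 to 94.7), by 64 of the 108 of B1 alone (59.3%, 49.4 to 68.6) and by 167 of the 288 of C1 alone (58.0%, 52.1 to 63.8). Among circles with both ends at exon edges of 1 transcript, the first exon was exon 2 in 18 of 25 shared circles (72.0%, 50.6 to 87.9), in 33 of 83 of B1 alone (39.8%, 29.2 to 51.1) and in 87 of 236 of C1 alone (36.9%, 30.7 to 43.4). In both measures the interval of the shared circles lay above that of C1 alone and overlapped that of B1 alone at its edge, and the difference was not tested. Their median predicted lengths for exonic circles were 353 and 380 nt, against 354 nt for shared ones, and their exonic shares were 76.9%, 81.2% and 75.0% in the same order. These Clopper-Pearson intervals treat circRNAs as independent, although some share a host.

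More host genes than circles were common to both libraries. Of the hosts, 43 had circles in both, which is 33.6% of the hosts of B1 and 16.0% of those of C1. For 31 of them at least 1 circle itself was shared, and for 12 the libraries held different circles of the same gene. These 12 were Atp9b, Btbd7, Ccdc171, Ckap5, Dnajc1, Etv6, Lpin2, Mkln1, Senp6, Sox6, Zcchc11 and Zfp207. They gave 15 pairs of a B1 circle and a C1 circle, of which 3 had the same start of the first exon, 2 had the same end of the last exon, 1 overlapped without a common end and 9 did not overlap. In 8 of the 12 hosts the libraries thus held circles without a common splice site.

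Senp6, a SUMO protease, showed pairs of both kinds. B1 held exons 2 to 5 with 28 reads, and C1 held exons 2 to 6 with 7 reads and exons 4 to 5 with 4 reads. Sox6 had 3 circles in B1, with 57, 47 and 7 reads, and a different circle in C1 with 12 reads. Lpin2, a phosphatidate phosphatase of lipid synthesis, had exons 3 to 4 in B1 (33 reads) and exons 6 to 7 in C1 (16 reads). Ckap5, a microtubule polymerase of the spindle, had exons 9 to 10 in B1 (39 reads) and exons 4 to 8 in C1 (6 reads). A1 had 0 reads for circles of these 4 genes.

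Hosts with several circles showed a shared circle beside others found in 1 library. For Ezh2, C1 held 3 more circles, with 8, 6 and 5 reads, which had 0 reads in B1 and A1. Those with 8 and 6 reads start at the same splice site as the shared circle. The first of them spans exons 2 to 10, and the second spans exons 2 to 3 with another end of exon 3. Strn3 gave 5 circles. Exons 2 to 7 had 46 reads in B1 and 19 in C1 (log2 1.33, and 0.24 with TMM), and exons 2 to 3 had 31 and 3. B1 alone held exons 9 to 10 with 34 reads and a circle with the same start as the shared ones with 32 reads. The end of that circle, chr12:51648006, lies close to chr12:51647994, the end of the exons 2 to 7 circle. Its ends do not both lie at exon edges of 1 transcript. C1 alone held exons 2 to 4 with 9 reads. Mbd2 had the circle with the most reads among those of C1 alone (31 reads, 0 in B1). Another Mbd2 circle from the same start with a different end had 34 reads in B1 and 7 in C1 (5.03-fold, 2.19 to 13.4). The circles of Mbd2 thus stood in opposite directions.

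Host genes were then grouped by role, and each group's calls were read against the 30.4% higher and 68.0% lower among all 428 circRNAs. Over these 428 the median log2 ratio was -5.27 with the authors' 0.1 reads in place of 0, and -0.46 with 3 reads in place of 0 and a difference of 0 where the other library had at most 3 reads. The second median is given for each group, since the first depends on the value chosen. The groups are small, some circles share a host, and nothing is claimed for a group beyond its counts.

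**Figure D4:**
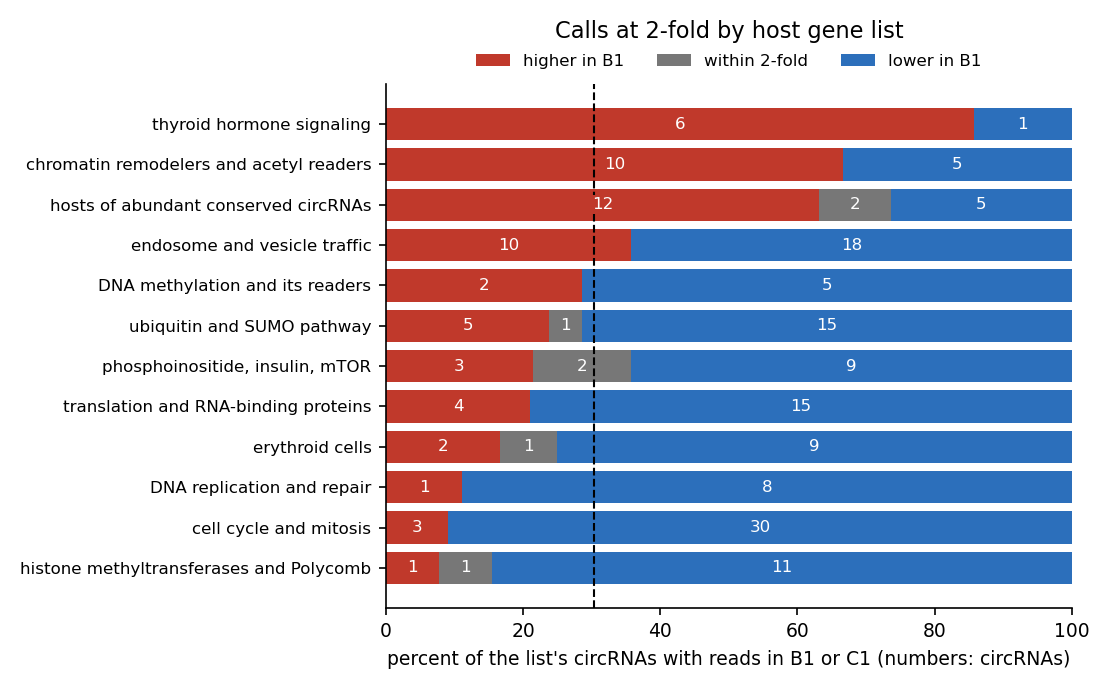
Share of each host group's circRNAs with reads in B1 or C1 (horizontal axis, percent) that were higher in B1, within 2-fold or lower in B1, with the number of circRNAs printed in the bar and the dashed line at the 30.4% higher among all 428. Cell cycle and mitosis had 3 higher and 30 lower, and chromatin remodelers and acetyl readers had 10 higher and 5 lower.

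Cell cycle and mitosis hosts had the most circles of the groups and were mostly lower in B1. Of 33 circRNAs from 23 hosts, 3 were higher (9.09%) and 30 lower (90.9%), with a median log2 ratio of -0.95. All 30 had 0 reads in B1, and 15 of them were at least 2-fold lower against 3 reads. They included kinetochore and checkpoint genes such as Cenpi (23 reads in C1), Casc5, the kinetochore scaffold (4 circles with 19, 8, 7 and 6 reads), Bub1b (11 reads) and Ttk (9 reads), both of the spindle checkpoint. Tfdp2, the dimerization partner of E2F, gave circles with 22 and 13 reads, and Kif23, a kinesin of cytokinesis, gave circles with 12 and 3. The exceptions were Zwilch, Ckap5 (39 reads in B1) and Depdc1b (33 reads in B1, 0 in C1). At 10 reads or more, 3 were higher and 9 lower, against 52.4% and 44.9% of all circRNAs.

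DNA replication and repair hosts had 1 higher (11.1%) and 8 lower (88.9%) of 9 circRNAs (median log2 -0.69). Cdc45 had 22 reads in C1, Pola1, the catalytic subunit of DNA polymerase α, had 18, and Fancl, a ubiquitin ligase of the Fanconi pathway, had 12, all with 0 reads in B1. Pola1 also had 39 reads in A1. Rnf169, which binds ubiquitin marks at DNA breaks, was the circle called higher, with 39, 17 and 51 reads in B1, C1 and A1 (2.37-fold, 1.31 to 4.48), a call that ended with TMM (log2 0.16). At 10 reads or more, 1 was higher and 3 were lower.

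Histone methyltransferases and Polycomb hosts had 1 higher (7.69%), 11 lower (84.6%) and 1 within 2-fold of 13 circRNAs (median log2 -1.37). Of the 11, 7 were at least 2-fold lower against 3 reads. With a minimum of 10 reads, 1 was higher, 4 were lower and 1 lay within 2-fold. The shares of all circRNAs at this minimum were 52.4% higher and 44.9% lower. Jarid2, a partner of the Polycomb complex that methylates H3, had 15 reads in C1 and 0 in B1. Kmt2e, a relative of the trithorax proteins, had circles with 13 and 3 reads in C1, and Kdm4c, a histone demethylase placed in this group, had 11. Ezh1, the paralog of Ezh2, was the circle called higher, with 24 reads in B1 and 0 in C1 (at least 8.28-fold). DNA methylation hosts had 2 higher (28.6%) and 5 lower (71.4%) of 7 (median log2 -0.95), shares near those of all circRNAs. With 10 reads or more required, 2 were higher and 3 lower. Dnmt1, the maintenance methyltransferase, had 22 reads in B1 and 0 in C1, and Uhrf2, a reader of modified cytosine, had 0 and 11.

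Chromatin remodelers and acetyl readers had 10 higher (66.7%) and 5 lower (33.3%) of 15 circRNAs, with a median log2 ratio of 1.92. Adnp, a zinc finger protein of the ChAHP complex, had 45 reads in B1 and 0 in C1 (at least 15.5-fold). The paralogs Atad2b and Atad2, bromodomain ATPases, had 40 and 35 reads in B1 and 0 in C1 (at least 13.8-fold and 12.1-fold). Smarcc1, Ncor1, a second circle of Ep400, Mllt10 and Chd2 gave the 5 lower circles, the last 3 of these with 3 to 5 reads in C1. At 10 reads or more, 9 were higher and 2 were lower, against 52.4% and 44.9%.

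Thyroid hormone signaling hosts had 6 higher (85.7%) and 1 lower of 7 circRNAs (median log2 3.46). At 10 reads or more the counts were the same, against 52.4% higher and 44.9% lower of all circRNAs. The 6 higher ones had at least 20 reads in B1, and at that minimum 80.3% of all circRNAs were higher. The study named hosts of this pathway on these same libraries, so the count is not independent evidence of its direction. Beside Slc16a10, Med13l and Med12l, the higher circles were those of Pik3cb, a catalytic subunit of PI3-kinase (49 reads in B1, at least 16.9-fold), Med13, a paralog of Med13l (32 reads, at least 11.0-fold), and Ncoa2, a nuclear receptor coactivator (24 reads, at least 8.28-fold), each with 0 reads in C1 and A1. Ncor1, a corepressor of nuclear receptors, had 10 reads in C1 and 0 in B1 (at least 3.22-fold lower). No circRNA of the thyroid hormone receptors Thra and Thrb or of the deiodinases Dio1 and Dio2 was in the table.

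Hosts of phosphoinositide, insulin and mTOR signaling had 3 higher (21.4%), 9 lower (64.3%) and 2 within 2-fold of 14 circRNAs, near the shares of all circRNAs for the lower calls. At 10 reads or more, 3 were higher, 3 lower and 2 within 2-fold. Gab1, a docking protein below receptor tyrosine kinases, had 34 reads in B1 and 0 in C1 (at least 11.7-fold), and Tbc1d1, a Rab GTPase-activating protein of GLUT4 traffic, had 30, 0 and 23 reads in B1, C1 and A1 (at least 10.3-fold). Rps6kc1, a kinase with a phosphoinositide-binding domain, had 15 reads in C1 and 0 in B1 (at least 4.83-fold lower), and Cyth3, an exchange factor recruited by PIP3, had 13 (at least 4.19-fold lower). The table held no circle of Insr, Irs1, Irs2 or Akt2.

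Endosome and vesicle hosts had 10 higher (35.7%) and 18 lower (64.3%) of 28 circRNAs, shares near those of all circRNAs. Rabgef1, an exchange factor of Rab5, had circles with 44 and 12 reads in B1, Snx14, a sorting nexin, had 41 and Rab14, a GTPase between Golgi and endosomes, had 31, all with 0 in C1. Dennd4a, an exchange factor of Rab10, had circles with 19, 8 and 7 reads in C1, and Picalm, a clathrin adaptor, had 11 and 4, all with 0 in B1. At 10 reads or more, 9 were higher and 6 lower.

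Ubiquitin and SUMO hosts had 5 higher (23.8%), 15 lower (71.4%) and 1 within 2-fold of 21 circRNAs (median log2 -1.17). These shares are near those of all 428 circRNAs. At 10 reads or more, 5 were higher, 9 lower and 1 within 2-fold, against 52.4% higher and 44.9% lower of all circRNAs. Ube3a, a HECT ubiquitin ligase, had 44 reads in B1 and 0 in C1 (at least 15.2-fold). Dcun1d1, which promotes cullin neddylation, had 22 reads in C1 and 0 in B1 (at least 7.09-fold lower). Translation and RNA-binding hosts had 4 higher (21.1%) and 15 lower (78.9%) of 19 (median log2 -0.69). With 10 reads or more required, 3 were higher and 4 lower. Eif4g3, an initiation scaffold, had 46 reads in B1 and 0 in C1 (at least 15.9-fold), whereas Rbm39, a splicing factor, had 22 in C1 and 0 in B1 (at least 7.09-fold lower).

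Hosts known for abundant and conserved circles had 12 higher (63.2%), 5 lower (26.3%) and 2 within 2-fold of 19 circRNAs. Their median log2 ratio of 1.9 was the same with either value in place of 0. At 10 reads or more, 12 were higher, 2 lower and 2 within 2-fold, against 52.4% higher and 44.9% lower of all circRNAs. Of its circles, 13 had at least 20 reads in B1, and at that minimum 80.3% of all circRNAs were higher. Adam10 had circles with 49 and 33 reads in B1 alone beside the shared one. Nfia, a transcription factor, had 22 reads in C1 and 0 in B1 (at least 7.09-fold lower), and Tle4, a corepressor, had 11. This group held 470 reads of B1 (10.8%) and 137 of C1 (4.70%).

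Markers of the cells that could release RNA into plasma were scored in the same way. Erythroid markers had 12 circRNAs with reads in B1 or C1, of which 2 were higher (16.7%), 9 lower (75.0%) and 1 within 2-fold (median log2 -1.16). The lower share is near the 68.0% of all circRNAs. At 10 reads or more, 1 was higher and 4 were lower. They held 50 reads of B1 (1.14%), 100 of C1 (3.43%) and 33 of A1 (0.800%). Slc25a37, the mitochondrial iron importer, had 21 and 5 reads in C1, Epb4.1, protein 4.1 of the membrane skeleton, had 19, 13 and 6, and Car2, a carbonic anhydrase, had 12, all with 0 in B1. The defining genes Gata1, Klf1, Alas2 and Slc4a1 had no circRNA in the table. The erythroid share of reads was higher in C1 than in B1. So were the shares of the cell cycle, replication, histone methyltransferase and DNA methylation hosts. Ubiquitin and SUMO hosts (7.45% of C1, 4.28% of B1) and translation hosts (4.29% and 2.36%) were higher in C1 as well. The other host groups held larger shares in B1. In A1, replication hosts held 6.47% of reads and erythroid markers 0.800%. The part of erythroid RNA in these results was not tested. In B1, 43 of the 50 erythroid reads came from Hbb-bs, whose counts, like those of Hbb-bt and Hba-a1, are uncertain because near-identical globin copies lie next to each other.

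The markers of other cell types were at 0 in both libraries. Platelet and T and NK cell markers each had 1 circRNA in the table, of Gp6 and Ptpn22, which was read only in A1. The lists for B cells, myeloid cells, hepatocytes, pancreatic islets and endothelium had no circRNA in the table, and neither had genes of exosome membrane proteins such as Cd9, Cd63, Cd81 and Tsg101. Most genes give few or no circles, so this does not measure the presence of these cells.

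A1 beside the comparison shows how little the libraries overlapped. Of the 130 circRNAs higher in B1, 10 had reads in A1, and of the 291 lower in B1, 9 had reads in A1. Split by detection, the 428 circRNAs had reads in A1 for 3 of the 108 of B1 alone, 8 of the 288 of C1 alone and 11 of the 32 shared ones. A1 against C1 and B1 against C1 use the same C1 counts, so a circle with 0 reads in both B1 and A1 appears as lower in both by construction.

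By the sample titles, EA-treated model against normal is C1 against A1, so C1 stands on the other side of the ratio. That comparison gave 302 higher and 152 lower circRNAs, with 19 read in both libraries. Of the 291 circRNAs lower in B1 than in C1, 283 were higher and 7 were lower in the EA-treated model by the titles. Of these 291, 282 had 0 reads in A1 and so turned by construction, since the same C1 counts are used. Of the 130 higher in B1, 15 were higher, 8 were lower and 107 were not called. The Mbd2, Stam, Eif3a and Smarcc1 circles of C1 alone thus stand lower with EA by the supplementary lists and higher with EA by the titles. Nmt1, Slc16a10, Sox6 and Ankfy1 circles, read in B1 alone, stand higher with EA by the lists and at 0 in both libraries by the titles.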

How the data were processed

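Junction reads of circRNAs in plasma exosomes were available as 1 table for 3 libraries, 1 per group. Exosomal RNA was depleted of rRNA and made into stranded paired-end libraries. Per the submitters' processing notes and the methods, adapters were trimmed with cutadapt 1.9.3, reads were aligned to mm10 with STAR 2.5.1b, and DCC detected the circRNAs, which were annotated from circBase. The table holds the authors' counts of junction reads, which are whole numbers, and deposited log2 normalized values, which were checked against the counts: each equals the logarithm of a count multiplied by its library's factor, where 0.1 stands for a count of 0. The sources used here do not say what the factors rest on.

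Ratios of counts scaled by these factors were taken with scipy 1.17.1, with exact 95% intervals (binomial split of a circRNA's reads), and shares carry Clopper-Pearson intervals. Both cover counting error only, because no molecular identifiers are described and PCR copies may be counted as molecules. Folds against 0 reads were computed against 3 reads and take the other count as exact, and folds were left out where B1 and C1 both had at most 3 reads. With 1 library per group no test across samples was possible. Exons came from GENCODE M21, by exact match of both ends to exon edges of 1 transcript, and exons inside a circle were not measured. The scripts were tested on simulated data for circRNAs with reads in B1 or C1.

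The circRNAs named are the 10 with the most reads among those higher and those lower in B1 (ties by position), those with reads in both libraries, hosts with different circles in both or with at least 3 circles, and members of 11 host lists and 9 marker lists. Members, lists and rule were chosen with earlier results of these data known. The 13 alternatives changed the value in place of 0, the scaling (unscaled, total junction reads, TMM of edgeR 4.0.16), the minimum of reads, the fold, merged or summed circRNAs, the annotation or the groups. Some circRNAs of these sets are not reported by name here.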

Additional observations from a re-analysis of the deposited data

How the results depend on the processing

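No paired analysis was possible because each group had 1 library, and no replicate could be left out. Of the 130 circRNAs higher in B1, 84 were left when only those with a database identifier were kept, and the groups of the GEO titles gave 302. The 291 lower circRNAs depended most on low counts: 168 were called with 3 reads in place of 0, 102 with a minimum of 10 reads in the higher library, 21 with one of 20, 101 with an exact interval beyond 2-fold, 169 with a database identifier and 152 by the titles. Fewer circRNAs enter under a minimum of reads or an identifier. Of the 22 shared circRNAs higher in B1, 12 were called with TMM scaling, 13 at 4-fold and 13 with an exact interval beyond 2-fold, which gave 0 in place of the 3 shared lower ones. The titles gave 19 shared circRNAs in place of 32. Under the 5 alternatives of zero value and scaling, 47 circRNAs were tallied one by one. They left the range of counting error only with total-read scaling (1, Ezh2) and with TMM (11, and Nfix beside these). TMM turned the sign of 3 that were called: the log2 ratios of Hba-a1 and St6galnac3 became -0.04 and that of Nfix became -0.09. Of shared circRNAs within 2-fold, TMM also turned Rps6kb1 (-0.48), Tulp4 (-0.39), Plcl2 (-0.75), Ezh2 (-0.34), Hbb-bt (-0.30) and Adam10 (-0.22), and total-read scaling turned Rps6kb1 (-0.03) and Plcl2 (-0.30). Low junction counts limit C1 most, where 65 of 320 circRNAs had at most 3 reads.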

Other observations

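The mitochondrial chromosome gave 2 circRNAs, both in C1 alone. They lie at chrM:124-1930 with 10 reads and at chrM:1900-2536 with 14 reads, over the genes of the mitochondrial ribosomal RNAs mt-Rnr1 and mt-Rnr2, and had 0 reads in B1 and A1. Against 3 reads they were at least 3.22-fold and 4.51-fold lower in B1. Neither carried an identifier from an earlier database, and neither had both ends at exon edges of 1 transcript. Whether these junctions arose by back-splicing was not tested.

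Most chromosomes had more detected circRNAs in C1 than in B1, as the libraries had as a whole. Chromosome 15 had more circRNAs in B1 than in C1 (6 and 4), and chromosome 10 had as many (7 and 7), with 251 reads in B1 and 63 in C1. Chromosomes 13 (9 and 10) and 4 (12 and 14) had nearly as many in B1 as in C1. Chromosome 19 had 2 circRNAs with 49 reads in B1 and 18 circRNAs with 182 reads in C1, and chromosome 14 had 1 with 47 reads and 10 with 92 reads. No test was made of these counts.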
